A study of Mus musculus with 16 samples.

Results

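The microRNAs (miRNAs) miR-451, miR-144 and miR-486, which are enriched in red blood cells, were followed across 16 one-colour Agilent arrays of mouse liver. They were chosen by name, as the probes whose gene name is mmu-miR-451, mmu-miR-144 or mmu-miR-486, and they are 3 of the 566 mouse miRNAs on the array. The livers came from male C3H/HeJ mice, an inbred strain prone to liver tumours, and the study's tumours were initiated with diethylnitrosamine, a carcinogen that acts in liver. By sample title there were 7 tumours with mutated Ctnnb1 and 3 controls under phenobarbital, a promoter of liver tumours, and 3 tumours with mutated Ha-ras and 3 controls under none. The last group is called untreated controls here for the missing phenobarbital only. Whether controls were given the carcinogen, and whether any animal gave more than 1 sample, is not in the labels, so all p-values measure the spread between these samples and that spread may be partly technical.

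The accounts of dosing differ. The series' design text gives carcinogen doses of 10 or 90 µg per g at 2 or 6 weeks of age, an interval of 2 weeks, and then 28 to 36 weeks on a diet that held 0.05% phenobarbital or none. The labels give 27 weeks, and their treatment protocol gives 28 days in drinking water. The sources do not assign these to samples, and the differences may lie between the phenobarbital and the untreated arms.

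Mature red cells have lost their nucleus but keep a set of abundant miRNAs, miR-451 among them. In mouse, miR-144 and miR-451 are cut from 1 primary transcript that the erythroid transcription factor GATA1 switches on, and miR-451 is needed for late red cell maturation and for resistance to oxidative stress. miR-486 is made from a gene inside Ank1, which encodes erythrocyte ankyrin of the red cell membrane skeleton, and a second promoter also drives it in muscle. Hepatocytes are not known as a major source of these miRNAs, and liver is rich in blood. The protocols in the labels mention no perfusion. The arrays hold no independent measure of blood, such as haemoglobin mRNA, so whether the 3 miRNAs follow the blood in a sample was not tested. In whole tissue, fewer cells of a type and less RNA per cell cannot be told apart.

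Mature sequences from RefSeq (mouse assembly GRCm38.p6) were matched for 2 of the 3 members, miR-451 and miR-144. They are shown 5′ to 3′ because these miRNAs share a transcript but not a seed. The seed, bases 2 to 8, which pairs with targets, is in capitals.
miR-451: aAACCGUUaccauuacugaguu
miR-144: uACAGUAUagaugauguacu
The 7-base seeds differ at 5 positions. The mature miR-451 is 22 bases long and lies at chr11:78073186-78073207 on the plus strand, and the mature miR-144 is 20 bases long and lies at chr11:78073047-78073066 on the same strand. Their hairpins are separated by 99 bases. The hairpins follow with the mature sequence in capitals, because the position of the mature strand differs between them.
miR-451 hairpin: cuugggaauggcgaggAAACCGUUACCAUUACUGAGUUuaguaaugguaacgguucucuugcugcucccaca
miR-144 hairpin: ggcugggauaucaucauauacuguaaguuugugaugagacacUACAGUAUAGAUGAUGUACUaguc
In the 72-base miR-451 hairpin, at chr11:78073170-78073241, the mature sequence starts at base 17 and runs through the loop. The miR-451 precursor is cut by Ago2 rather than by Dicer. In the 66-base miR-144 hairpin, at chr11:78073005-78073070, the mature sequence starts at base 43, on the 3′ arm. In the same assembly Mir486 lies within the span of Ank1.

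Each member was measured by 2 probes with 10 spots each on every array. Levels are log2 of the spot signal after each array was scaled to its own 75th percentile, taken from 117 mouse probes that every array detected, so they are relative to the brighter part of the detected miRNAs and not amounts per cell. A probe counted as detected where more than a share of 0.5 of its spots were well above background. Between 83 and 117 miRNAs were detected on an array, and no spot was saturated. The 75th percentile before scaling ran between 386 and 1248 across the arrays and was highest on Ha-ras tumour 1. For 1-colour arrays the precision is limited by the number of arrays in a group.

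miR-451 was bright everywhere. In the Ctnnb1 tumours its log2 level had a lowest value of 10.84, a median of 11.21 and a highest value of 11.96. The phenobarbital controls stood at 11.85, 12.09 and 11.62. The Ha-ras tumours stood at 10.44, 11.47 and 12.32, and the untreated controls at 10.24, 12.22 and 11.02. The highest array was thus a Ha-ras tumour and the lowest an untreated control, and every pair of groups overlapped. The group means were 11.44 ± 0.48 in Ctnnb1 tumours (SD, n = 7), 11.86 ± 0.23 in phenobarbital controls, 11.41 ± 0.95 in Ha-ras tumours and 11.16 ± 0.997 in untreated controls (SD, n = 3 each). The order, phenobarbital control, Ctnnb1 tumour, Ha-ras tumour, untreated control, had no neighbours that differed beyond their spread.

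miR-144 lay near the middle of the detected range. In the Ctnnb1 tumours the lowest, median and highest log2 levels were 6.42, 6.69 and 7.83. The phenobarbital controls stood at 7.26, 7.50 and 6.86. The Ha-ras tumours stood at 5.99, 6.73 and 7.81, and the untreated controls at 5.72, 7.70 and 6.11. The groups overlapped here too, and Ha-ras tumour 3 and untreated control 2 were again the highest of their groups, while the highest array of all was Ctnnb1 tumour 5. The means were 6.96 ± 0.51 in Ctnnb1 tumours (SD, n = 7), 7.21 ± 0.32 in phenobarbital controls, 6.84 ± 0.92 in Ha-ras tumours and 6.51 ± 1.05 in untreated controls (SD, n = 3 each). The order of the group means was that of miR-451, again with no neighbours that differed beyond their spread.

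miR-486 was near the background of the array. Its brighter probe was detected on 8 of 16 arrays and its dimmer probe on 1 array. By the brighter probe it was detected in 4 of 7 Ctnnb1 tumours, 1 of 3 phenobarbital controls, 2 of 3 Ha-ras tumours and 1 of 3 untreated controls. The scaled signal of that probe, on a linear scale, had a lowest value of 13.4, a median of 22.8 and a highest value of 59.8 in the Ctnnb1 tumours. It was 27.4, 42.3 and 24.2 in the phenobarbital controls. It was 11.9, 28.3 and 69.1 in the Ha-ras tumours, against 5.91, 45.5 and 23.2 in the untreated controls. The highest and the lowest arrays were those of miR-451, Ha-ras tumour 3 and untreated control 1. Because miR-486 was not detected on all arrays of any group, it did not enter the test across miRNAs and no size of a difference is given for it.

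**Figure D1:**
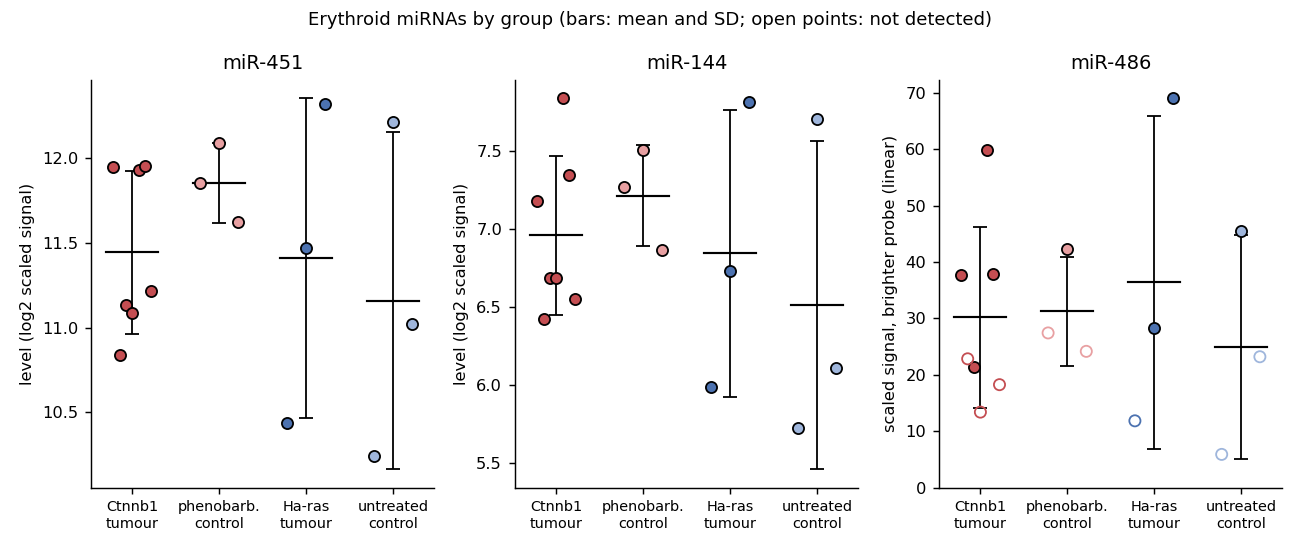
Level of each member on every array. The vertical axis is log2 scaled signal for miR-451 and miR-144 and linear scaled signal of the brighter probe for miR-486, the horizontal axis is the group, each point is an array, lines and error bars give the group mean ± SD, and open points are arrays on which miR-486 was not detected. The groups overlap in all panels, and the Ha-ras tumours and the untreated controls spread most.

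The spread within groups was wide. Between the highest and the lowest of the 16 arrays miR-451 differed 4.24-fold and miR-144 differed 4.32-fold. Within the Ctnnb1 tumours these ranges were 2.17-fold and 2.66-fold for miR-451 and miR-144, and within the phenobarbital controls 1.38-fold and 1.56-fold. Within the Ha-ras tumours they were 3.70-fold and 3.54-fold, and within the untreated controls 3.94-fold and 3.95-fold. The brighter probe of miR-486 spanned 11.7-fold over all arrays, a range that is inflated near background. The wide ranges within the 2 groups without phenobarbital rest on 3 arrays each.

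The pooled within-group SD was 0.69 for miR-144 and 0.66 for miR-451 on the log2 scale. The median was 0.24 over the 96 miRNAs tested, which are those that all arrays of 1 or more groups detected, and the range was 0.07 to 1.65. miR-144 ranked 4 and miR-451 ranked 5 of 96. The miRNAs above them were miR-494 at 1.65, miR-690 at 0.91 and miR-379 at 0.69, which were named after their values were seen. Of the variation of miR-451 over the arrays 12.4%, and of that of miR-144 12.0%, lay between the 4 group means. The share was 7.81% for the log2 signal of the brighter miR-486 probe. Some share arises between 4 group means without any group difference, and the share over all tested miRNAs was not computed. Over the 10 spots of a probe, which share an array's RNA, labelling and hybridisation and so give the reading error alone, the median coefficient of variation was 4.01% and 4.23% for the miR-451 probes and 6.35% and 6.22% for the miR-144 probes. For miR-486 it was 16.5% and 42.1%. Across the 16 arrays the 2 probes of miR-451 had r = 0.999 with an SD of their log2 difference of 0.03, and those of miR-144 had r = 0.996 with an SD of 0.06.

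**Figure D2:**
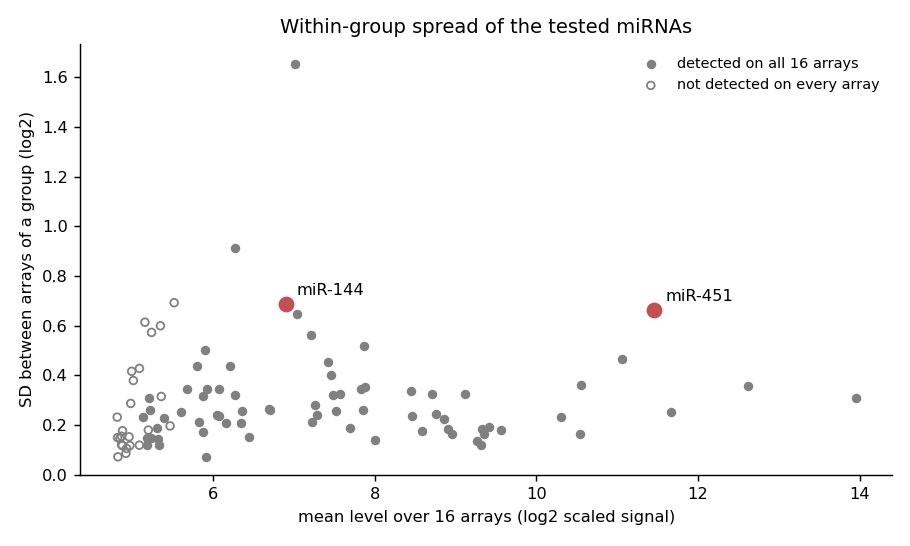
Within-group SD of the log2 level (vertical axis) against the mean log2 level (horizontal axis) for the 96 tested miRNAs, 1 point each. Filled points are miRNAs detected on all 16 arrays, and miR-451 and miR-144, marked in red, lie at 0.66 and 0.69, against a median of 0.24.

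The members were high and low on the same arrays. Over all 16 arrays the log2 levels of miR-451 and miR-144 correlated with Pearson's r = 0.957 and Spearman's rho = 0.935, and the p of each, 1e-05 before and after Benjamini-Hochberg adjustment over the 3 pairs of members, was the smallest that 100000 permutations can give. Without the 2 arrays farthest from the median of miR-451, untreated control 1 and Ha-ras tumour 1, r was 0.930. The 8 arrays highest in miR-451 were the 8 highest in miR-144. The slope of miR-144 on miR-451 was 0.99, so that the SD of the difference between them over the arrays was 0.19, against 0.63 for miR-451 and 0.65 for miR-144 alone.

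This relation did not rest on differences between groups. Deviations from the group means correlated with r = 0.958, and miR-451 and miR-144 lay on the same side of their group mean on 14 of 16 arrays. Among the 7 Ctnnb1 tumours, r was 0.903 with an exact two-sided permutation p of 0.00714, or 0.0128 adjusted over the 3 pairs. Spearman's rho there was 0.75, with an exact permutation p of 0.0663 that was 0.139 after adjustment. Without the 2 tumours farthest from the median r was 0.966. The groups of 3 are too small for a correlation.

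The slides served as batches. On slide 1, with all 7 of the Ctnnb1 tumours and Ha-ras tumour 1, r was 0.937 (exact permutation p = 0.00089, adjusted 0.00249, n = 8) and rho was 0.833 (exact permutation p = 0.0154, adjusted 0.0368, n = 8). Slides 2 and 3 held 5 and 3 arrays, too few for a correlation. Scaling divides both members by the same number on an array, which can itself make values move together, so the unscaled signals were also compared, and r was 0.953. Unscaled signals share the brightness of their array instead. Their r with the log2 75th percentile of the array was 0.31 for miR-451 and 0.28 for miR-144. The level of miR-451 had r = -0.38 with the log2 scaling value over 16 arrays, and that of miR-144 had r = -0.40. The median of that r was -0.20 over the 72 miRNAs detected on all arrays, 25 of which had r below -0.3. Without Ha-ras tumour 1, the brightest array, it was -0.16 for miR-451. The part of array brightness in the relation between the members was not tested further.

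miR-486 moved with the other members as far as it could be measured. This comparison used the log2 signal of its brighter probe with no lower limit and was chosen after seeing the data, since on the arrays where it was not detected the signal holds background. Over 16 arrays r was 0.917 and rho 0.915 with miR-451, and r was 0.907 and rho 0.926 with miR-144, with permutation p-values of 1e-05, the smallest possible, before and after adjustment. Without the 2 farthest arrays r was 0.855 with miR-451 and 0.866 with miR-144. Among the 7 Ctnnb1 tumours r was 0.836 with miR-451 (exact permutation p = 0.0312, also after adjustment) and 0.891 with miR-144 (exact permutation p = 0.00853, adjusted 0.0128). Without the 2 farthest tumours these were 0.825 and 0.654, so the relation with miR-144 rests in part on Ctnnb1 tumours 5 and 6. Among these tumours no rho passed after adjustment (0.139 for each of the 3 pairs, exact permutation). On slide 1, with 8 arrays, r was 0.883 and 0.921 with miR-451 and miR-144 (exact permutation p = 0.00578 and 0.00166).

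Detection, a cut on the unscaled spots of the same probes, gave a similar picture. It does not follow the scaled signal exactly: Ctnnb1 tumour 3 counted as detected at 21.4 and phenobarbital control 4 did not at 27.4. Where miR-486 was detected, on 8 arrays, miR-451 stood between 11.13 and 12.32 with a median of 11.95, and miR-144 between 6.68 and 7.83 with a median of 7.42. Where it was not detected, on the other 8, miR-451 stood between 10.24 and 11.85 with a median of 11.05, and miR-144 between 5.72 and 7.26 with a median of 6.49. Of the 8 arrays highest in miR-451, miR-486 was detected on 6. On a linear scale the brighter probe of miR-486 had r = 0.890 with miR-451 and the dimmer probe had r = 0.807. The 1350 probes of miRNAs never detected gave a median r of -0.04 with miR-451, a 5th to 95th percentile of -0.414 to 0.435 and a highest value of 0.826.

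**Figure D3:**
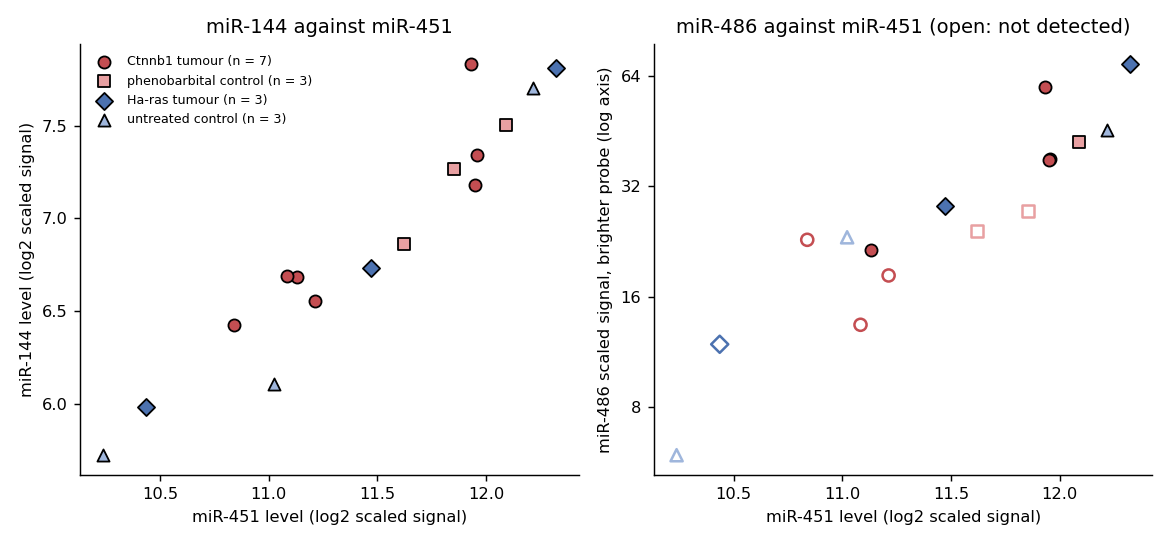
Level of miR-144 (left, log2 scaled signal) and scaled signal of the brighter miR-486 probe (right, log axis) against the miR-451 level (horizontal axes, log2 scaled signal), 1 point for each of the 16 arrays, with colour and shape for the group. r is 0.957 for miR-144 and 0.917 for miR-486, whose open points are arrays on which it was not detected, the Ha-ras tumours and untreated controls run along most of the range, and the phenobarbital controls lie in its upper part.

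The miRNAs whose pattern was most like that of miR-451 were ranked by Pearson's r of the log2 levels over the 16 arrays. Apart from miR-144, the first 5 of 94 other miRNAs were miR-106b at 0.636, miR-25 at 0.633, miR-16 at 0.632, miR-19b at 0.576 and let-7i at 0.573. For miR-144 the first 5 were miR-106b at 0.693, miR-140* at 0.648, miR-16 at 0.617, miR-25 at 0.613 and miR-19b at 0.612. The median r over the 94 was 0.173 for miR-451 and 0.124 for miR-144, and the lowest for miR-451 was -0.622 for miR-148a. The gap between miR-144 and the next miRNA was therefore wide. Under each of the 9 ways of scaling or summarising the signals, miR-144 ranked 1 among the 95 other miRNAs in its r with miR-451, with r between 0.891 and 0.957. The next places were less firm, since miR-106b ranked between 2 and 7, miR-16 between 2 and 6, miR-25 between 2 and 12, miR-19b between 3 and 8 and let-7i between 6 and 28. The r of miR-148a was 0.09 when all mouse probes set the scaling.

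miR-106b, miR-25 and miR-93 are cut from 1 transcript inside Mcm7, a replication gene, and miR-16 is an abundant miRNA of many blood cells. miR-93 had r = 0.570 with miR-451. With the group means removed, the miRNAs with the highest r to miR-451 after miR-144 were miR-16 at 0.848, miR-106b at 0.794, miR-15a at 0.752 and miR-92a at 0.736, followed by miR-93 at 0.714, miR-25 at 0.709 and miR-19b at 0.700, while let-7i had 0.578. These miRNAs moved over a smaller range than miR-451, with within-group SDs of 0.24 for miR-16, 0.35 for miR-106b, 0.15 for miR-93 and 0.14 for miR-25. They are expressed in many cell types, hepatocytes included. With a lower floor before log2, r with miR-451 went from 0.633 to 0.595 for miR-25 and from 0.636 to 0.622 for miR-106b. Probes at the floor thus enter the levels of these 2 and may narrow their spread. The r of miR-16 and miR-93 did not change.

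Lists of other miRNAs were set beside the members. Of 13 further red cell miRNAs on the array, 8 were tested, 1 was detected on a single array and 4 (miR-17, miR-484, miR-363 and miR-320) were never detected. The 8 had r with miR-451 of 0.015 to 0.636 with a median of 0.507. The highest of them were miR-106b, miR-25, miR-16 and miR-93, already named above for their likeness, so this median is not separate from that ranking. Of 8 leukocyte miRNAs, 4 were tested and miR-150, miR-155 and miR-342-3p were never detected, and r ran between -0.075 and 0.551 with a median of 0.180. The highest of these was miR-142-3p, an miRNA of blood-forming lineages, and its within-group SD was 0.52. The 4 tested of 8 endothelial and stromal miRNAs had a median r of 0.225, and the 9 hepatocyte miRNAs, led in abundance by miR-122 (detected on all 16 arrays), had a median r of 0.258. These r values are descriptions, since all miRNAs of an array share its scaling value, and no difference between lists was tested.

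**Figure D4:**
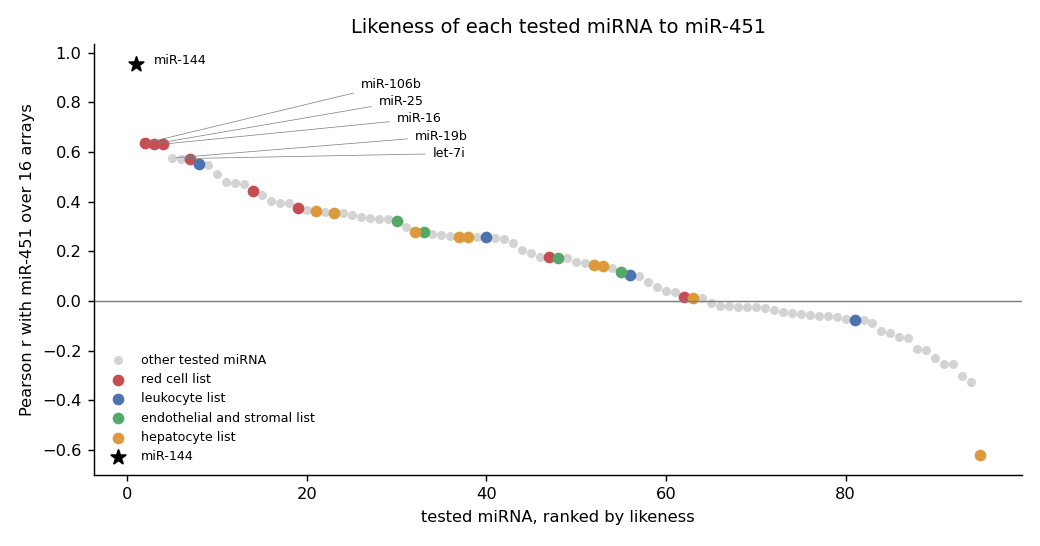
Pearson's r with miR-451 over 16 arrays (vertical axis, no unit) for the 95 other tested miRNAs in order of likeness (horizontal axis), with a star for miR-144 and colours for the lists. miR-144 stands at 0.957, the next, miR-106b, at 0.636, and miR-148a is last at -0.622.

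The first comparison asks how tumours with mutated Ctnnb1, the gene of beta-catenin, differ from control liver under phenobarbital. miR-451 averaged 11.44 in Ctnnb1 tumours and 11.86 in phenobarbital controls, a log2 difference of -0.41 (SE 0.42, 95% interval -1.31 to 0.48), with an adjusted p of 0.604 by limma with Benjamini-Hochberg adjustment over the 96 miRNAs. miR-144 averaged 6.96 in Ctnnb1 tumours and 7.21 in phenobarbital controls, a log2 difference of -0.25 (SE 0.43, 95% interval -1.18 to 0.67) with an adjusted p of 0.767. Neither of these 2 members passed the threshold of 0.05, against 8.33% of the miRNAs tested, and neither had groups that did not overlap, against 14.6%. Tumours lay above controls in 6 of 21 pairs of arrays for each. The interval for miR-451 reaches a tumour level 2.47-fold below the controls, so a loss of up to that size could not be told from no difference. The Ctnnb1 tumours shared no slide with a phenobarbital control, so there is no within-slide value. With slide as a block, the log2 differences turned to 1.22 and 1.14 for miR-451 and miR-144 (limma adjusted p = 0.608 and 0.657). That fit borrows the slide differences from the other groups, and for slide 1 from a single array, Ha-ras tumour 1. This array was low in both members, at 10.44 for miR-451 and 5.99 for miR-144, so the turn rests on it.

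In the Ha-ras tumours, where Ha-ras encodes a GTPase of growth factor signalling, miR-451 averaged 11.41, against 11.16 in untreated controls. The log2 difference was 0.25 (SE 0.50, 95% interval -0.81 to 1.31; limma adjusted p = 0.743). miR-144 averaged 6.84 in Ha-ras tumours and 6.51 in untreated controls, a log2 difference of 0.33 (SE 0.51, 95% interval -0.77 to 1.42; limma adjusted p = 0.670). Here 29.2% of the miRNAs tested passed, 9.38% higher and 19.8% lower in tumours, and 42.7% had groups that did not overlap, while 0 of the 2 members did either. Tumours lay above controls in 6 of 9 pairs. The direction rested on single arrays: without untreated control 1 the differences were -0.21 and -0.06 for miR-451 and miR-144, and without Ha-ras tumour 3 they were -0.20 and -0.15. Slide 2 held 2 of the Ha-ras tumours and untreated control 1, the array lowest in both members, and there the differences were 1.66 and 1.55. They are given without a test, as 1 of the groups is a single array there.

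All Ctnnb1 tumours and no Ha-ras tumours were under phenobarbital. Tumour type and phenobarbital therefore cannot be told apart in any difference between the tumour types, here or below. Between the tumour types miR-451 averaged 11.44 in Ctnnb1 tumours and 11.41 in Ha-ras tumours, a log2 difference of 0.03 (SE 0.42, 95% interval -0.86 to 0.93; limma adjusted p = 0.968). For miR-144 the averages were 6.96 in Ctnnb1 tumours and 6.84 in Ha-ras tumours, a log2 difference of 0.11 (SE 0.43, 95% interval -0.81 to 1.04; limma adjusted p = 0.878). Of all tested miRNAs 30.2% passed and 18.8% had groups that did not overlap, against 0 of the 2 members by either measure. The sign turned without Ha-ras tumour 1, at -0.45 for miR-451 and -0.31 for miR-144, and without Ctnnb1 tumour 5, at -0.05 and -0.03, and for miR-451 also without Ctnnb1 tumour 1 or 6, at -0.05. With the scaling set over all mouse probes, which moves the median of all tested miRNAs by -0.40, it was -0.52 for miR-451 and -0.43 for miR-144. Within slide 1, against the single Ha-ras tumour there, the differences were 1.01 and 0.97, likewise with no test.

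The last comparison sets the controls with and without phenobarbital against each other. miR-451 averaged 11.86 in phenobarbital controls and 11.16 in untreated controls, a 1.62-fold or log2 difference of 0.70 (SE 0.50, 95% interval -0.36 to 1.75; limma adjusted p = 0.654). miR-144 averaged 7.21 in phenobarbital controls and 6.51 in untreated controls, likewise 1.62-fold or a log2 difference of 0.70 (SE 0.51, 95% interval -0.40 to 1.79; limma adjusted p = 0.654). No miRNA of the 96, 0%, passed by limma in this comparison, while 6 had an unadjusted p under 0.05, and 25% had groups that did not overlap. Neither member did, as phenobarbital controls lay above untreated controls in 6 of 9 pairs. Without untreated control 1 the log2 differences were 0.24 for miR-451 and 0.30 for miR-144. Within slide 2 it was 1.73 for miR-451 and 1.66 for miR-144 against untreated control 1, and within slide 3, with phenobarbital control 6 alone in its group, it was 0.00 and -0.04. These too are single-array values with no test.

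The change in Ctnnb1 tumours against their controls and that in Ha-ras tumours against theirs were set against each other as an interaction. The difference of the log2 differences was -0.66 for miR-451 (SE 0.65, 95% interval -2.05 to 0.72; limma adjusted p = 0.607) and -0.58 for miR-144 (SE 0.67, 95% interval -2.02 to 0.85; limma adjusted p = 0.624). Of the 96 miRNAs 2.08% passed this test and neither member did.

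**Figure D5:**
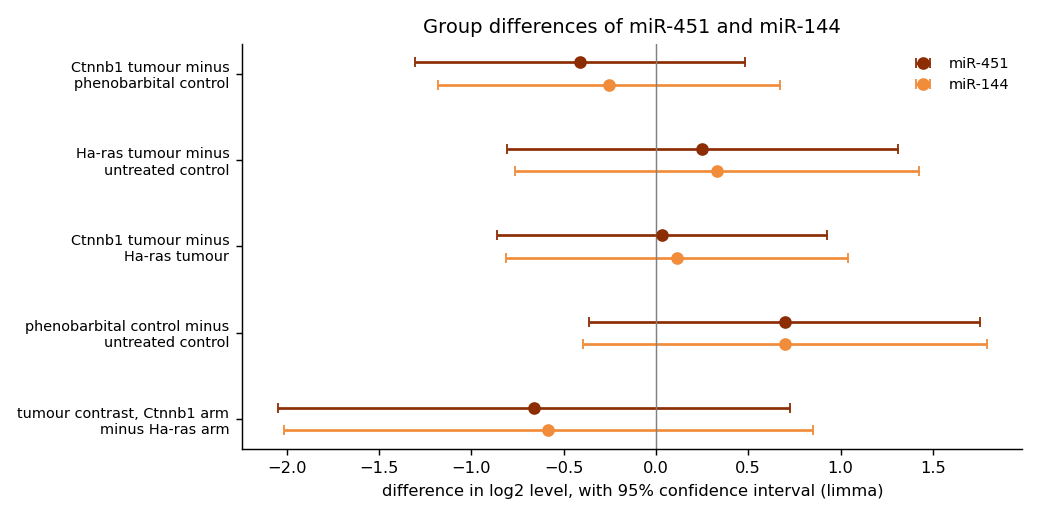
Log2 difference with its 95% interval (horizontal axis) for miR-451 and miR-144 in the 4 comparisons and the interaction (rows), with the first-named group minus the second. All intervals include 0, and the estimates lie between -0.66 and 0.70.

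Of the 8 tested miRNAs of the red cell list, none passed in Ctnnb1 tumours against phenobarbital controls, where 8.33% of all tested miRNAs did. In Ha-ras tumours 1 of the 8 (miR-92a) was lower than in untreated controls, against 29.2% of all tested miRNAs called and 19.8% called lower. Between the tumour types 2 of the 8 (miR-16 and miR-92a) were higher in Ctnnb1 than in Ha-ras tumours, against 30.2% called and 16.7% called higher, and between the controls none of the 8 and 0% of all passed. These counts are near the shares over all miRNAs or below them. Their median log2 differences were 0.11, 0.10, 0.24 and 0.06, against -0.05, -0.06, 0.08 and 0.05 over all tested miRNAs. miR-16 was 0.52 higher on the log2 scale in Ctnnb1 than in Ha-ras tumours (SE 0.16, limma adjusted p = 0.0284) and miR-19b, which is not in the list, was 0.62 higher (SE 0.21, limma adjusted p = 0.038), where miR-451 differed by 0.03 and miR-144 by 0.11. Of the other miRNAs named for their likeness to the members, miR-106b, miR-25, let-7i and miR-140* passed in none of the 4 comparisons.

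Counts for the other lists are to be read against the same shares over all tested miRNAs, which are 8.33% in Ctnnb1 tumours against phenobarbital controls, 29.2% in Ha-ras tumours against untreated controls, 30.2% between the tumour types and 0% between the controls. Of the 4 tested leukocyte miRNAs none passed in Ctnnb1 tumours against phenobarbital controls or between the controls. miR-146b was higher in Ha-ras tumours than in untreated controls and lower in Ctnnb1 than in Ha-ras tumours. It was detected on only 5 arrays and was tested through the group where it is high, so these differences depend on the floor. miR-223, of granulocytes and macrophages, was higher in Ctnnb1 than in Ha-ras tumours. The summed log2 level of the leukocyte list ran between 8.59 and 9.30 in Ctnnb1 tumours and between 8.90 and 9.06 in phenobarbital controls. It ran between 9.28 and 9.72 in Ha-ras tumours and between 8.48 and 9.17 in untreated controls. The sum includes miR-146b, which was 3.56 higher on the log2 scale in Ha-ras tumours than in untreated controls. The median log2 difference of the 4 tested leukocyte miRNAs there was -0.17, against -0.06 over all tested miRNAs. The summed level of the red cell list lay between 9.51 and 10.17 in Ctnnb1 tumours, 9.63 and 9.74 in phenobarbital controls, 9.34 and 9.64 in Ha-ras tumours and 9.39 and 9.68 in untreated controls. Of the 4 endothelial and stromal miRNAs tested, 2 were lower in Ctnnb1 tumours than in phenobarbital controls (miR-10a and miR-199a-3p) and 3 were lower in Ha-ras tumours than in untreated controls (those 2 and miR-143). None passed in the other 2 comparisons. miR-143 was detected on only 6 arrays, and its mean log2 level of 4.82 lay near the floor of 4.63, so its difference depends on the floor. Of the 9 hepatocyte miRNAs none passed in Ctnnb1 tumours against phenobarbital controls, 1 (miR-378) was lower in Ha-ras tumours than in untreated controls, 1 was higher and 3 were lower in Ctnnb1 than in Ha-ras tumours (miR-101b and miR-30a, both lower, had the smallest p), and none passed between the controls. The part of these other cell types in the levels of the members was not tested.

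Because miR-451 varied so widely within groups, its level was also added to the fit as a covariate for the other miRNAs, an alternative chosen after seeing the data. The fit then called 8 miRNAs in Ctnnb1 tumours against phenobarbital controls, 31 in Ha-ras tumours against untreated controls, 30 between the tumour types and 0 between the controls, against 8, 28, 29 and 0 without it. With miR-451 held equal, the log2 difference of miR-144 in Ctnnb1 tumours against phenobarbital controls was 0.15 (limma adjusted p = 0.537), where it was -0.25 without the covariate. In Ha-ras tumours against untreated controls it was 0.08, where it was 0.33 without. Between the tumour types it was 0.08, where it was 0.11 without, and between the controls it was 0.0076, where it was 0.70 without.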

How the data were processed

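Per the file headers, the arrays were read with Feature Extraction 10.7.3.1 under the protocol miRNA_107_Sep09. The intensity taken from the deposited scanner output was the background-subtracted signal of a spot, before any normalisation between arrays. The deposited table of log2 values, by its own range of -1 to 14.88, was an alternative only. The sources used here do not give how it was normalised, and the submitters' processing notes name R 2.14.1. Its columns have the same median of 5.60, except that of Ctnnb1 tumour 6 at 5.54. They rank miRNAs within an array as the scanner's total gene signal does (rho 1), and rise with it with a slope of 0.999. The table's handling of low values, and the step that gave its columns a common median, stay unknown.

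Outlier spots were left out, spots of a probe averaged, control and viral probes left out, signals divided by each array's 75th percentile over 117 probes and multiplied by a common constant of 609. A floor of 24.8 was set before log2, and a miRNA was the mean of its probes. Groups came from sample titles. limma 3.58.1 (R 4.3.3) fitted the 4 group means over 16 arrays for the 96 miRNAs that all arrays of 1 or more groups detected, with Benjamini-Hochberg adjustment and a threshold of 0.05. The fit was tested on simulated data. Alternatives covered background, scaling, probe summary, floor, detection filter, slide, replicate block and leaving out each array.

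The members, and the red cell, leukocyte, endothelial and stromal, and hepatocyte lists, were chosen with earlier results of these data known. Named besides the members are the 5 miRNAs with the highest r to miR-451 and to miR-144, and in each list up to 2 members with the smallest p in a comparison, where they passed. miR-93, miR-148a, miR-142-3p, miR-15a, miR-143 and the miRNAs with the widest spread were named after their values were seen.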

Additional observations from a re-analysis of the deposited data

How the results depend on the processing

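No setting called miR-451 or miR-144 in any comparison (lowest adjusted p 0.172, for miR-144 in Ha-ras tumours against untreated controls without untreated control 2, leaving aside the fits within 1 slide, where 1 group is a single array), and their correlation stayed between 0.891 and 0.957 over 10 settings and between 0.944 and 0.972 with each array left out in turn. Signs were less stable, and the causes were not tested. The replicate block used only arrays of the 2 compared groups whose replicate number occurs in both. These were Ctnnb1 tumours 4, 5 and 6 against phenobarbital controls, and Ctnnb1 tumours 1, 2 and 3 against Ha-ras tumours. Its values therefore differ from the main fit in the arrays used as well as in the block. In Ctnnb1 tumours against phenobarbital controls the fixed slide block gave 1.22 for miR-451 and 1.14 for miR-144. In that block Ha-ras tumour 1 alone sets the offset of slide 1 against the other slides. In the same comparison miR-144 also turned with the replicate block (0.077) and with miR-451 as a covariate (0.15). Between the tumour types miR-451 turned under scaling over all mouse probes (-0.52), the total gene signal (-0.0015), the deposited values (-0.062), slide as a random block (-0.063) and the replicate block (-0.10), and miR-144 under all mouse probes (-0.43), the deposited values (-0.053) and the replicate block (-0.081). Between the controls miR-144 turned within slide 3 (-0.043). The interaction turned with the fixed slide block (0.14 for miR-451, 0.16 for miR-144) and for miR-144 with the covariate (0.074). Leaving out 1 array gave, in Ctnnb1 tumours against phenobarbital controls, -0.53 to -0.29 for miR-451 and -0.43 to -0.11 for miR-144; in Ha-ras tumours against untreated controls, -0.21 to 0.78 and -0.15 to 0.93; between tumour types, -0.45 to 0.49 and -0.31 to 0.60; between controls, 0.24 to 1.23 and 0.30 to 1.29; and for the interaction, -1.19 to -0.20 and -1.18 to -0.10. The number of miRNAs called moved more. The main fit tested 96 miRNAs, but 72 were tested for those detected on all arrays, 150 with the filter of at least 1 array and 95 with the covariate. Counts under these settings are therefore out of different totals. In Ctnnb1 tumours against phenobarbital controls it was 8, and 0 with all mouse probes, 4 with the median of detected probes, 1 with normexp, 2 with the deposited values, 4 for miRNAs detected on all arrays, 1 with the fixed and 20 with the random slide block, 0 with the replicate block, and 5 (without phenobarbital control 6) to 18 (without Ctnnb1 tumour 1) with an array left out. In Ha-ras tumours against untreated controls it was 28, and 12 with all mouse probes, 14 with normexp, 9 with the deposited values, 9 with the fixed slide block, 2 within slide 2, 16 with the replicate block, and 13 (without untreated control 2 or Ha-ras tumour 1; 18 without untreated control 3) to 33 with an array left out. Between the tumour types it was 29, and 19 for miRNAs detected on all arrays, 8 with the fixed slide block, 5 within slide 1, 3 with the replicate block, and 5 (without Ha-ras tumour 2; 11 without Ha-ras tumour 1) to 29 with an array left out. Between the controls it was 0, and 5 with the deposited values, 1 with the filter of at least 1 array and 1 without untreated control 1. The interaction had 2, and 1 with normexp, the total gene signal or the deposited values, 0 for miRNAs detected on all arrays, 4 with the random slide block, 4 with the covariate, and 2 to 3 with an array left out. Same-numbered samples did not regularly deviate together (r of deviations 0.139, -0.195 and -0.626 in the first comparison, 0.580, -0.682 and -0.094 in the second, -0.136, 0.235 and -0.095 between tumour types). So few values cannot settle whether the replicate numbers pair the samples. No paired analysis was possible between the controls because they share no replicate number. When all mouse probes set the scaling, the median of all tested miRNAs shifted by 0.16 in Ctnnb1 tumours against phenobarbital controls, by 0.34 in Ha-ras tumours against untreated controls, by -0.40 between the tumour types and by -0.11 between the controls. miR-486 is limited by its signal over background.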
